A study of Mus musculus with 12 samples.

Results

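Colonic organoids grown from AhR-deficient mice were compared before and after Wnt-3A was taken out of their medium. The aryl hydrocarbon receptor (AhR) acts as a ligand-dependent transcription factor, and its ligands are small molecules from food, microbes and pollutants. The genes described here are the 14299 of the 48795 genes in the table whose normalised read count was at least 10 in at least 3 of the 6 AhR-deficient (KO) libraries. Of these, 12819 reached 10 in all 6 libraries. A further 304 passed only through the stem cell condition and 440 only through the differentiated condition, and such genes had to differ between the conditions.

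The KO groups were 3 libraries of organoids in the stem cell condition (KO stem) and 3 of organoids differentiated for 3 days without Wnt-3A (KO differentiated). Crypts of the colon were embedded in Matrigel and grown with R-spondin-1, Noggin, EGF and Wnt-3A. All mice were C57BL/6. The 6 libraries of wild-type (WT) organoids, 3 per condition, gave the response against which the KO response was tested. The labels name no allele, deleted exon, promoter-driven Cre or age, and they do not say whether the libraries came from separate mice or cultures. The p-values therefore measure the spread between these libraries, which may be technical.

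A colonic crypt is renewed by Wnt. Stem cells at its base, marked by Lgr5 and Ascl2, need Wnt and R-spondin to keep dividing, and their daughters become absorptive colonocytes or goblet, enteroendocrine and tuft cells as they leave the Wnt source. Colonocytes take up salt and water through a brush border, goblet cells secrete the mucus layer, and enteroendocrine cells secrete hormones. In organoids this step is set off by withdrawing Wnt-3A. AhR bound to its partner Arnt recognises DNA with the core GCGTG and induces genes of xenobiotic metabolism, of which Cyp1a1 and Cyp1b1 are the best known, and it is expressed in intestinal epithelium.

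The upstream DNA of a pair of genes that the results return to is shown first, as the 200 bases before the RefSeq transcription start (GRCm38.p6, minus strand for both). Mki67 encodes the proliferation antigen Ki-67 (gene at chr7:135689784-135716361). Its promoter is shown because the mitotic genes fell together, and the capitals mark TTTGAA, the cell cycle homology element (CHR), and CCAAT, the site of the factor NF-Y, or its reverse complement ATTGG. Cyp1b1 encodes a cytochrome P450 (gene at chr17:79701537-79715061). Its promoter is shown because it is a target of AhR that fell in organoids without AhR, and the capitals mark CACGC, the AhR core read on the opposite strand.
Mki67, chr7:135716380-135716579: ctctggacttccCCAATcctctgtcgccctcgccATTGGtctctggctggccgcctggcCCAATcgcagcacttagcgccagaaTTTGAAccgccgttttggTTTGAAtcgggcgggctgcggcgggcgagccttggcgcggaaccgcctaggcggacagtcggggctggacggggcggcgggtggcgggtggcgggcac
Cyp1b1, chr17:79715062-79715261: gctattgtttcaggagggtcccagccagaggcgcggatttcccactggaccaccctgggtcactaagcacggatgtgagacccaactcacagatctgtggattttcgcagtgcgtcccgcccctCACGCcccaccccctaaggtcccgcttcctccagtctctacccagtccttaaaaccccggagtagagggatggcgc

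The Mki67 sequence held the CHR from 116 to 111 and from 98 to 93 bases before the start. It held CCAAT from 188 to 184 and from 141 to 137 bases before the start, and ATTGG from 166 to 162. The Cyp1b1 sequence held the AhR core once, from 76 to 72 bases before the start. Such short words are common. With both strands searched in the 19583 RefSeq windows matched to genes in the table (300 bases, 250 before to 50 after the start), 16.6% held TTTGAA, 38.3% held CCAAT and 37.4% held GCGTG. Of these windows 10567 belonged to the 14299 genes described here, so the shares over all windows also cover other genes. A match is a description of the sequence only.

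The 6 KO libraries held 50199070 to 99023592 reads as recovered from the table, and the 6 WT libraries 25057534 to 75678644. A principal component analysis of the KO libraries put 87.5% of the variance on the axis that separated the conditions. Epithelial markers were high in all 6 KO libraries: Epcam read 30130, 33355 and 33991 in KO stem and 82062, 90595 and 90221 in KO differentiated. Of 3 markers of the small intestine, Gata4 and Fabp6 stayed at or below 5.33. The other, Onecut2, read 16.7, 33.8 and 24.4 in KO stem and 321, 320 and 320 in KO differentiated. Some libraries stood apart. Of 21 fibroblast and muscle markers, Vim read 356 and Col1a1 159 in KO stem library 3, and the list summed to 667 there against 68.3 and 88.9 in the other KO stem libraries and 114 to 117 in KO differentiated. WT stem library 1 summed to 22913 for the same list. KO differentiated library 1 was the lowest of its group for 24 of the 25 colonocyte genes that rose, against 36.0% of all risen genes. Without WT stem library 1 and KO stem library 3 together, 9951 of the genes changed in KO, against 9818 with them, and without KO differentiated library 1 the number was 9423.

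Ahr itself (chr12:35497974-35535038) was still counted in the organoids labelled AhR-deficient. Its normalised count was 2503, 2831 and 2690 in KO stem and 3824, 3356 and 3110 in KO differentiated. In WT organoids it was 1762, 1746 and 1909 in the stem condition and 2127, 2236 and 2260 after differentiation. The KO libraries were the higher ones in each condition. The count is over the whole gene and does not show whether a part is deleted, so it does not check the genotype. Cyp1b1 read 571, 408 and 269 in KO stem against 8502, 7479 and 8453 in WT stem, with no overlap.

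Differentiation moved most of the genes. Of the 14299 genes, 4908 rose and 4910 fell at an adjusted p under 0.05 (limma, log2(value + 1), Benjamini-Hochberg over 14856 tested genes). In the tested genes as a whole 34.1% rose and 33.6% fell, 67.7% in all, and the median log2 change was 0.01, so counts in the gene groups are read against these shares. Of the genes that reached 10 in all 6 libraries, 8842 of 12819 (69.0%) changed. Most changes were small: the median absolute log2 change was 0.54 beside a median standard error of 0.12, and 2006 genes rose and 1685 fell by at least 2-fold, where 14.6% and 11.9% of the tested genes did, 26.5% in all. At the far end, 243 genes rose and 105 fell by at least 4 on the log2 scale. Of 273 lincRNA genes, 96 rose and 47 fell. Because these are bulk libraries, fewer cells of a type and less RNA per cell cannot be told apart anywhere in what follows. All log2 changes are KO differentiated minus KO stem with the standard error after ±, and on this scale the change of low genes is understated.

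**Figure D1:**
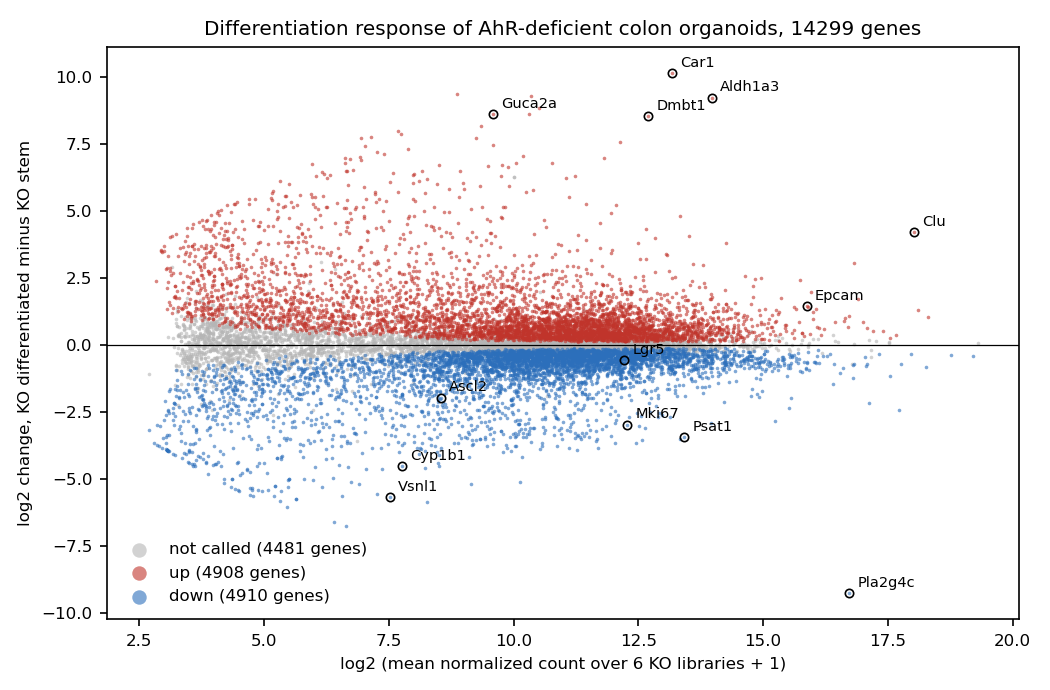
Log2 change (KO differentiated minus KO stem, y axis) against log2(mean normalised count + 1) over the 6 KO libraries (x axis), 1 point per gene, coloured by whether the gene rose (4908), fell (4910) or did not pass the test (4481 genes). Risen and fallen genes are about equal in number, and the rises reach further, with Car1 at 10.15 and Pla2g4c at -9.27.

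The largest fall was that of Pla2g4c, a calcium-independent cytosolic phospholipase A2 (chr7:13324655-13360672). Its normalised count was 211723, 220389 and 218988 in KO stem and 228, 447 and 419 in KO differentiated, a 595-fold lower mean (log2 -9.27 ± 0.30, limma adjusted p = 1.91e-09). It went from one of the most counted genes of the stem condition to a low level in all 3 differentiated libraries. Vsnl1, a neuronal calcium sensor, read 409, 341 and 332 and then 8.38, 3.21 and 7.50 (log2 -5.69 ± 0.50). Chl1, a cell adhesion molecule, read 217, 138 and 200 and then 5.33, 1.07 and 2.73 (log2 -5.64 ± 0.46). Ppp1r3c, which targets protein phosphatase 1 to glycogen, read 223, 345 and 337 and then 5.33, 3.21 and 8.18 (log2 -5.57 ± 0.69). The largest falls and rises were chosen among genes with no overlap between the conditions, which held for 10737 of the 14299 genes (75.1%).

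Other strong falls were close to the limit of detection after differentiation. Gdf10, a ligand of the TGF-beta superfamily, went from 717 reads over the KO stem libraries to 3 reads, a ratio of 211 (95% interval 72.0 to 1027, counting error only). Prr5l, a component associated with mTORC2, went from 324 to 2 reads (ratio 143, interval 39.3 to 1188). Cnfn, a component of the cornified envelope, read 86.2, 41.8 and 31.6 in KO stem and was not counted after differentiation, which makes it at least 21.2-fold lower with a floor of 3 reads per library. The interferon-inducible GTPase gene Gvin1 read 667, 579 and 522 and then 0, 21.4 and 43.6, with a wide error (log2 -5.88 ± 1.72, limma adjusted p = 0.00981). The early embryonic genes Zscan4f (ratio 97.3, interval 33.0 to 474), Zscan4c (ratio 223, interval 39.6 to 8835) and Zfp352 (ratio 195, interval 34.6 to 7718) also fell. They belong to families of near-identical copies, and which copy the reads came from is uncertain.

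The largest rise was that of Car1, carbonic anhydrase 1 of the colonocyte (chr3:14766216-14808368). It read 19.4, 10.3 and 13.2 in KO stem and 9858, 17097 and 28609 in KO differentiated, a 1295-fold higher mean (log2 10.15 ± 0.45, limma adjusted p = 1.02e-08). Aldh1a3, which makes retinoic acid from retinal, read 49.0, 64.6 and 44.8 and then 31640, 35973 and 28307 (log2 9.23 ± 0.28). Clca4b, of the calcium-activated chloride channel regulators, read 1.08, 2.94 and 6.11 and then 1495, 2591 and 3739 (log2 9.30 ± 0.43). Guca2a, the precursor of the gut hormone guanylin, read 3.23, 1.47 and 3.05 and then 710, 1559 and 2322 (log2 8.62 ± 0.42). Every differentiated library lay far above every stem library for these genes, which had been chosen for having no overlap.

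Defence and signalling genes were among the strongest rises too. Dmbt1, a secreted mucosal scavenger receptor, read 21.0, 32.3 and 30.5 and then 3846, 18597 and 17119 (log2 8.55 ± 0.54), with KO differentiated library 1 the lowest. Il18rap, a subunit of the interleukin-18 receptor, read 16.2, 3.67 and 2.04 and then 3920, 2483 and 2332 (log2 8.83 ± 0.80). Cyp2c55, a cytochrome P450 of the colon, read 2.69, 2.20 and 4.07 and then 541, 1267 and 2092 (log2 8.17 ± 0.57), and its relative Cyp2c65 rose as well (log2 7.87 ± 0.58). Acsbg1, which activates long-chain fatty acids, went from 3 reads to 3463 (ratio 1306, interval 446 to 6334). Rgs4, a regulator of G protein signalling (ratio 576, interval 197 to 2795), and Ubd, a ubiquitin-like modifier (ratio 595, interval 164 to 4923), were likewise near 0 in KO stem. The protease gene Prss30 was not counted in KO stem and read 94.5, 257 and 378 after differentiation, at least 106-fold higher.

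Genes of cell division fell as whole groups. All 37 DNA replication genes fell, with a median of -2.15 and changes from -0.75 (Gins4) to -3.66 (Rrm2) on the log2 scale. All 32 mitosis genes fell, with a median of -3.30 and changes from -1.76 (Kif23) to -3.95 (Ccnb2). Every gene of both lists reached 10 in all 6 libraries. Mki67 read 6780, 7531 and 12258 in KO stem and 737, 1280 and 1327 in KO differentiated, 7.95-fold lower (log2 -2.99 ± 0.24, limma adjusted p = 6.22e-07). Its lowest stem library lay well above its highest differentiated one.

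Rrm2, the small subunit of ribonucleotide reductase, read 8456, 7312 and 7508 and then 545, 639 and 659 (log2 -3.66 ± 0.17). Ccnb2, a mitotic cyclin, read 4508, 4443 and 4862 and then 205, 352 and 364 (log2 -3.95 ± 0.17). Bub1, a kinase of the spindle checkpoint, read 2436, 2932 and 2984 and then 156, 191 and 209 (log2 -3.91 ± 0.12). The drop was about as large for Tk1, thymidine kinase (-3.37 ± 0.15), Prim1, a primase subunit (-3.25 ± 0.12), Cdc45 of the replicative helicase (-3.23 ± 0.13), Hmmr of the spindle (-3.86 ± 0.13) and the checkpoint kinase gene Ttk (-3.79 ± 0.18). None of these was below 73.1 in any differentiated library, so these transcripts were lower and still counted.

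RefSeq windows were matched for 30 of the 37 replication genes. Of these windows, 19 (63.3%) held CCAAT, against 38.3% of all windows. The E2F words TTTCCCGC or TTTGGCGC stood in 10 (33.3%), against 2.01% of all, and TTTGAA in 5 (16.7%), against 16.6%. For the mitosis genes 25 of 32 had a window, under the 80% required, so no share is given for them.

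The genes that set entry into the cycle were mixed. Of 24 G1 cyclins, their inhibitors and E2F factors, 12 fell and 6 rose (median -0.45). E2f8 (-3.40 ± 0.17) and E2f7 (-2.77 ± 0.17), cell cycle repressors, Ccne2, cyclin E2 (-3.07 ± 0.24), and Cdkn2c, an inhibitor of Cdk4 and Cdk6 (-2.82 ± 0.19), fell most. Cdkn1a, the inhibitor p21, rose from 9569, 10090 and 8950 to 19633, 17442 and 18293 (log2 0.95 ± 0.08). Ccnd1, cyclin D1, read 104265, 76425 and 66152 and then 78481, 60455 and 57545, and these values overlapped (limma adjusted p = 0.163).

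Ribosome biogenesis genes, which grow with proliferation, fell by less. Of 30, 27 fell and the other 3 did not pass, with a median of -0.72. Npm1, nucleophosmin of the nucleolus, read 56645, 67969 and 64831 and then 27694, 28910 and 28564 (log2 -1.15 ± 0.07). Rrp1b (-1.42 ± 0.12), the rRNA methyltransferase gene Fbl (-1.19 ± 0.12) and the nucleolar GTPase gene Gnl3 (-1.07 ± 0.13) fell to a similar extent.

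The stem cell markers did not fall as a group. Of the 19 that were members, 7 fell, 6 rose and 6 did not pass (median -0.13, mean -0.35). Lgr5, the R-spondin receptor that marks crypt stem cells, read 4308, 5560 and 7264 in KO stem and 3994, 3544 and 3825 in KO differentiated (log2 -0.56 ± 0.32, limma adjusted p = 0.138). The conditions did not overlap for Lgr5, but the stem libraries spread over a wider range than the change of the mean. Ascl2, the transcription factor of the stem cell programme, fell from 546, 561 and 667 to 170, 120 and 164 (log2 -1.97 ± 0.18). Tnfrsf19, also called Troy, fell from 1113, 904 and 1088 to 80.0, 32.1 and 66.8 (log2 -4.19 ± 0.30). Cd44, an adhesion receptor and Wnt target, rose from 14926, 13751 and 13469 to 38042, 29715 and 27274 (log2 1.16 ± 0.12).

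Wnt targets and feedback genes leaned lower, with 11 of 21 fallen and 5 risen (median -0.51), and 1 of the 21 passed the filter through a single condition. Axin2, a feedback inhibitor that is read as a measure of Wnt signalling, fell from 6521, 7061 and 6742 to 4125, 3047 and 3176 (log2 -0.99 ± 0.13). Notum, a secreted enzyme that inactivates Wnt, fell from 712, 356 and 380 to 99.8, 67.4 and 81.8 (log2 -2.47 ± 0.27). Lef1 (-2.04 ± 0.49) fell as well, and Myc fell slightly (-0.45 ± 0.12). Zbtb7c, a zinc finger repressor, went the other way, from 53.3, 59.4 and 67.2 to 1867, 1461 and 1622 (log2 4.76 ± 0.16).

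Markers of absorptive colonocytes rose. Of the 29 that were members, 25 rose and Ceacam1 alone fell, with a median of 3.13. The call for Ceacam1 (log2 -0.34) was lost without KO differentiated library 1 or any KO stem library. Here 8 of the 29 passed the filter through a single condition, and of the 20 at 10 or more in all 6 libraries 16 rose and 1 fell (median 1.69). Krt20, the keratin of differentiated epithelium, rose from 33.4, 59.4 and 61.1 to 3248, 9106 and 8947 (log2 6.99 ± 0.44). Clca4a rose from 29.1, 44.0 and 56.0 to 4227, 11378 and 11235 (log2 7.58 ± 0.35). In both, KO differentiated library 1 was the lowest by a factor of over 2 and still far above all stem libraries. Markers of the colon surface were not all induced: Car4, carbonic anhydrase 4, read 2.69, 5.87 and 15.3 and then 0.762, 4.28 and 2.73 (limma adjusted p = 0.134), and the water channel gene Aqp8 reached only 4.57, 81.3 and 17.0. RefSeq windows were matched for 25 of the 29, and 6 (24.0%) held TTTATG, a word bound by CDX factors, against 10.6% of all windows. Of the 2006 genes risen at least 2-fold, 1375 had a window, under the percentage required above, so no share is given. The HNF4 word CAAAGTCCA stood in 0 of the 25 and in 0.45% of all windows. The median GC content was 53.0% in the 25 and 55.7% in all.

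The brush border followed in part. Of 26 genes 18 rose and 3 fell (Cobl, Eps8 and Pdzk1), with a median of 0.91, and 3 of the 26 passed through a single condition. Myo1a, brush border myosin, rose from 177, 187 and 272 to 4508, 9177 and 11209 (log2 5.21 ± 0.28). Alpi, intestinal alkaline phosphatase, rose from 1.08, 3.67 and 0 to 142, 411 and 447 (log2 7.13 ± 0.62), and Mep1a, a membrane protease subunit, by 5.13 ± 0.39. Pdzk1, a scaffold for apical transporters, fell from 115, 108 and 94.7 to 0, 8.55 and 2.73 (log2 -5.02 ± 0.74).

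Among 26 transporters of salt, chloride and water 13 rose and 6 fell (median 0.59), and 3 of the 26 passed through a single condition. Of the 21 at 10 or more in all 6 libraries 11 rose and 5 fell (median 0.54). Slc26a3, the chloride-bicarbonate exchanger of the colonocyte, read 0.539, 1.47 and 0 and then 54.9, 329 and 343, a ratio of 333 (interval 114 to 1617). The sodium-proton exchangers rose too, Slc9a2 from 95.3, 99.8 and 84.5 to 3354, 4705 and 5010 (log2 5.51 ± 0.16) and Slc9a3 by 4.25 ± 0.39. Atp12a, the colonic proton-potassium pump, fell from 362, 483 and 403 to 25.1, 43.8 and 28.6 (log2 -3.67 ± 0.35).

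Goblet cell genes rose alongside. Of 26 members 21 rose and 3 fell (Creb3l1, Foxa3 and Retnlb), with a median of 3.21. Because 8 of the 26 passed through a single condition, the 16 at 10 or more in all 6 libraries are given too: 12 rose and 2 fell, with a median of 1.97. Muc2, the main mucin of the colon, rose from 33.9, 64.6 and 116 to 217, 630 and 586 (log2 2.74 ± 0.46, limma adjusted p = 0.00024). Tff3, trefoil factor 3, rose from 5.39, 1.47 and 8.14 to 566, 1486 and 1580 (log2 7.71 ± 0.47). Zg16, a lectin of the mucus, went from 2 reads to 496 (ratio 280, interval 77.2 to 2323). Spink4 (5.55 ± 0.85) and Ang4 (4.98 ± 0.50), secreted by goblet and deep crypt cells, rose as well.

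Other secretory cells were thinly represented. Of 25 enteroendocrine markers 7 were members, and 6 of them rose (median 1.87). Because 2 of the 7 passed through a single condition, the 3 at 10 or more in all 6 libraries are given too, of which 2 rose (median 1.34). Chgb, chromogranin B of hormone granules, rose from 3.77, 2.94 and 12.2 to 125, 417 and 378 (log2 5.43 ± 0.60). Tph1, which makes serotonin in enterochromaffin cells, was not counted in KO stem and read 17.5, 39.6 and 37.5 afterwards, at least 13.8-fold higher. Chga (2.17 ± 0.42) and Cpe (1.87 ± 0.20), of hormone granules and prohormone processing, rose too. Of 20 tuft cell markers 9 were members, of which 3 fell and 1 rose (median 0.28, mean -0.43). Here 2 of the 9 passed through a single condition, and of the 6 at 10 or more in all 6 libraries 1 rose and 1 fell. Ptgs1, cyclooxygenase 1, fell from 3228, 1583 and 1699 to 165, 75.9 and 109 (log2 -4.20 ± 0.54), Gng13 fell too (-2.24 ± 0.48), and Cd24a, a surface protein that is not restricted to tuft cells, rose by 1.77 ± 0.20. Alox5ap fell (-1.66 ± 0.52, limma adjusted p = 0.0136) and was no longer called without KO differentiated library 2.

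Genes of the small intestine and of Paneth cells were listed as a check. Of 22, 12 were members, 9 rose and 2 fell (Reg3b and Reg3g), and 4 of the 12 passed through a single condition. Of the 6 at 10 or more in all 6 libraries 5 rose. Slc10a2, the ileal bile acid transporter, rose from 25.9, 9.54 and 12.2 to 296, 376 and 707 (log2 4.79 ± 0.42). Sis, sucrase-isomaltase, went from 1 read to 116 (ratio 131, interval 23.1 to 5226). Fabp2, the fatty acid binding protein of enterocytes, rose from 4.85, 4.40 and 4.07 to 44.9, 97.3 and 106 (log2 3.85 ± 0.38).

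Transcription factors of the intestine rose in the main. Of 34, 26 rose and Klf4 alone fell (median 0.97), and 2 of the 34 passed through a single condition. Of the 28 at 10 or more in all 6 libraries 22 rose and 1 fell (median 0.88). Hnf4a, a nuclear receptor of enterocyte genes, rose from 9758, 9348 and 10706 to 21211, 31917 and 35056 (log2 1.53 ± 0.15). Nr1i2, the pregnane X receptor, rose from 13.5, 6.60 and 9.16 to 464, 732 and 884 (log2 6.01 ± 0.31). Cdx1, a homeobox gene of intestinal identity, rose from 612, 703 and 924 to 1783, 3031 and 3360 (log2 1.84 ± 0.22). Its relative Cdx2 was called at the edge of the threshold (0.38 ± 0.16, limma adjusted p = 0.0488), with overlapping conditions, and lost the call when any of 9 libraries was left out. Klf4, a factor of goblet and surface cells, fell from 5729, 8309 and 7938 to 2106, 3597 and 3938 (log2 -1.22 ± 0.30).

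Signals between crypt cells moved with them. Of 17 Notch pathway genes 11 rose and 2 fell (median 0.96), and 2 of the 17 passed through a single condition. Of the 14 at 10 or more in all 6 libraries 9 rose and 2 fell (median 0.82). The receptor gene Notch4 rose from 14.01, 12.5 and 23.4 to 562, 423 and 382 (log2 4.73 ± 0.40), and the ligand gene Dll4 by 3.56 ± 0.55. Spdef, a goblet cell factor of cells released from Notch, rose from 2.15, 1.47 and 3.05 to 56.4, 99.4 and 105 (log2 4.75 ± 0.35). Atoh1, the switch to secretory fate, rose from 1.62, 9.54 and 5.09 to 14.5, 47.0 and 55.2 (log2 2.65 ± 0.61). Of 20 Hedgehog and BMP genes 10 rose and 4 fell (median 0.29), and of the 18 at 10 or more in all 6 libraries 8 rose and 4 fell (median 0.17). Ihh, the epithelial Hedgehog ligand, rose from 4.85, 2.94 and 8.14 to 309, 605 and 798 (log2 6.48 ± 0.37), and Bmp7, a BMP ligand, fell from 737, 616 and 522 to 96.0, 68.4 and 71.6 (log2 -2.98 ± 0.18).

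KO differentiated library 1 was the lowest of its group in most of these lists: in 16 of 18 risen brush border genes, 17 of 21 goblet genes and 20 of 26 transcription factors. The 33 colonocyte genes summed to 308506, 323464 and 311426 in KO stem and to 326729, 521093 and 548619 in KO differentiated. In that sum library 1 of the differentiated group came near the stem libraries. Without it 26 colonocyte and 21 goblet genes rose. The part of this library in the results was not tested beyond these counts.

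**Figure D2:**
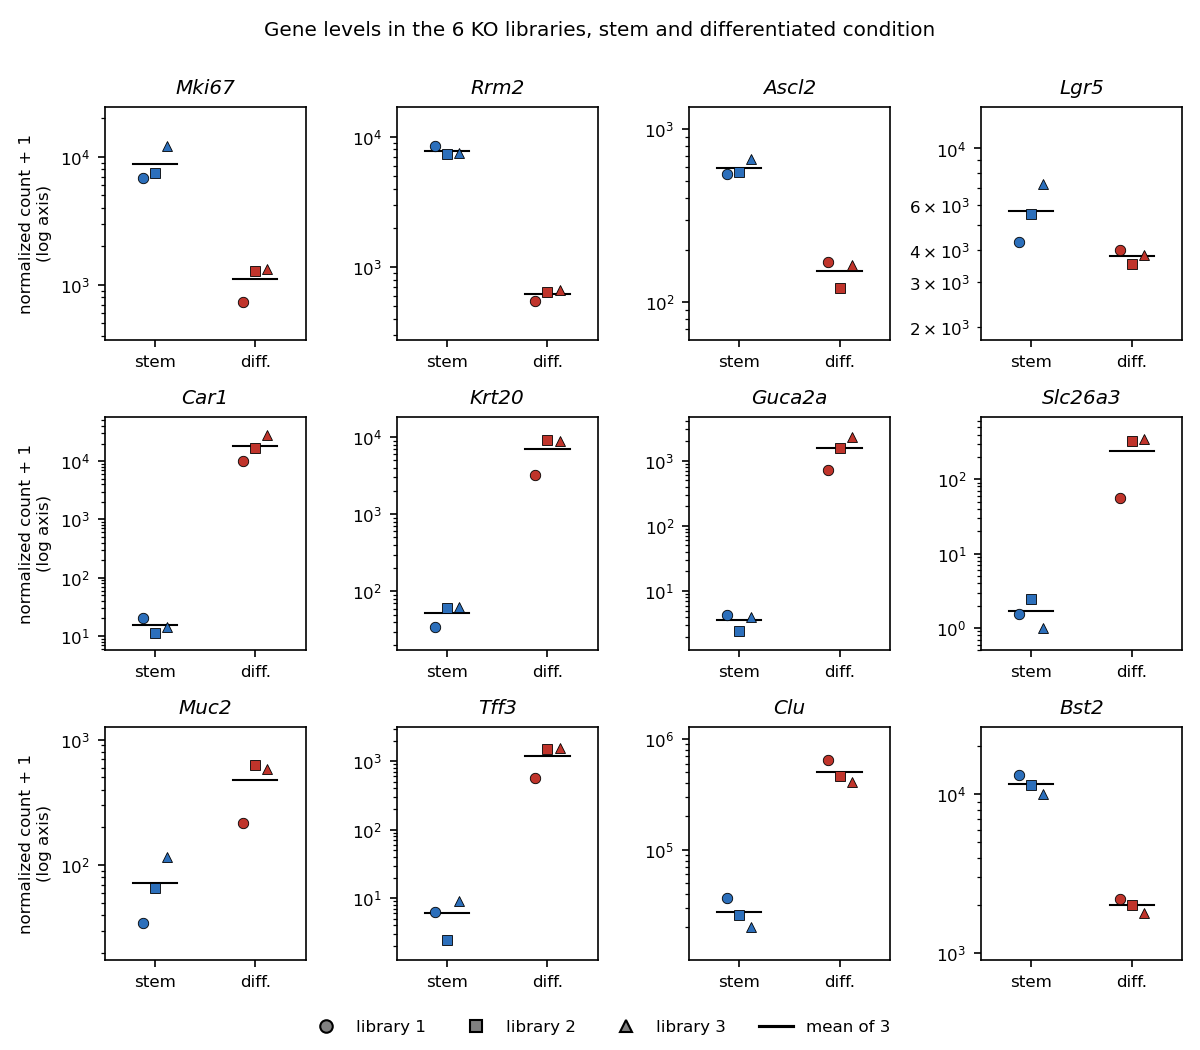
Normalised count + 1 (log axis, y) of Mki67, Rrm2, Ascl2, Lgr5, Car1, Krt20, Guca2a, Slc26a3, Muc2, Tff3, Clu and Bst2 in the 6 KO libraries by condition (x axis), with 1 symbol per library number and a line at the mean of each condition. The conditions do not overlap for any of the 12 genes, though they come close for Lgr5. Within its condition, the circle of KO differentiated library 1 is the lowest for Mki67, Rrm2, Car1, Krt20, Guca2a, Slc26a3, Muc2 and Tff3. It is the highest of its condition for Ascl2, Lgr5, Clu and Bst2.

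**Figure D3:**
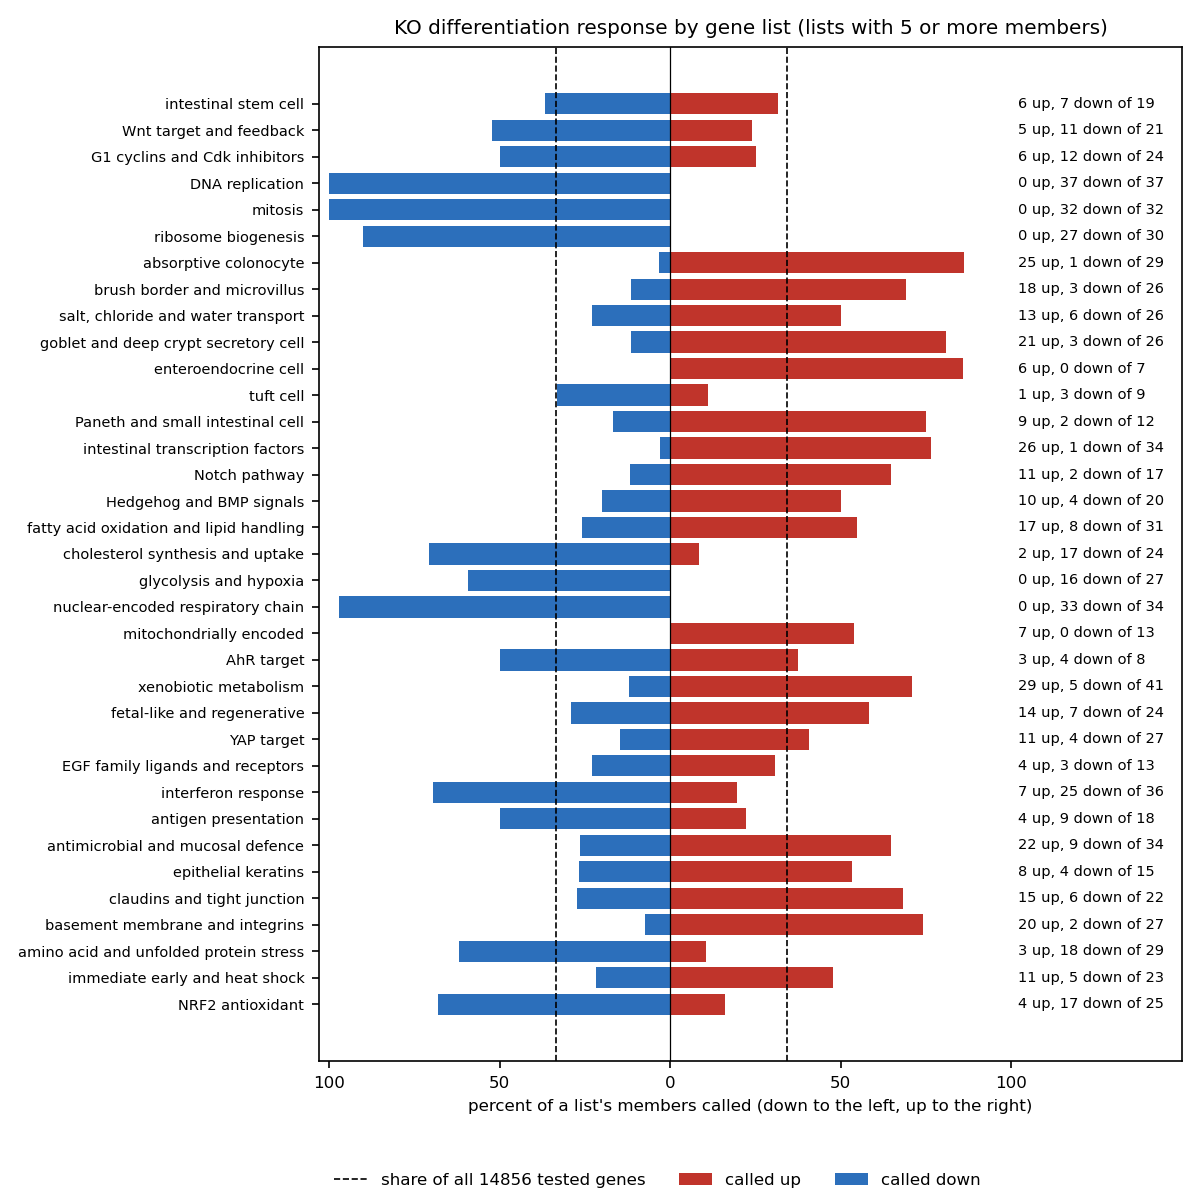
Share of the measured members of each gene group that rose or fell in KO organoids (x axis, percent), for groups with at least 5 members, with dashed lines at the shares over all tested genes (34.1% up and 33.6% down). Mitosis and DNA replication genes all fell, and the colonocyte, goblet and enteroendocrine groups hold high shares of risen genes. Of these groups' members, 8 of 29, 8 of 26 and 2 of 7 passed the filter through a single condition, which fixed that they differ.

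Transcripts of metabolic genes changed in several ways. Of 34 nuclear-encoded respiratory chain genes 33 fell by a modest amount (median -0.66), such as Ndufb10 of complex I, from 5386, 4922 and 5227 to 2205, 2350 and 2428 (log2 -1.15 ± 0.07), and Uqcrq of complex III (-1.11 ± 0.06). Of the 13 mitochondrially encoded genes 7 rose and the other 6 did not pass (median 0.37). mt-Nd5 rose from 43266, 32411 and 40329 to 64816, 66992 and 75071 (log2 0.84 ± 0.12). mt-Nd6 also rose (0.97 ± 0.28) although its conditions touched, and it is encoded on the other strand from most mitochondrial genes, so its reads cannot be told from theirs where strand was not used.

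Genes of glycolysis and the hypoxia response leaned lower: 16 of 27 fell and the other 11 did not pass (median -0.67). Pgk1, phosphoglycerate kinase, fell from 111716, 142726 and 131298 to 49310, 71931 and 67873 (log2 -1.04 ± 0.24). Adm, adrenomedullin, read 1892, 12711 and 7541 and then 315, 742 and 647 (log2 -3.41 ± 1.06, limma adjusted p = 0.014), and both Adm and the glucose transporter gene Slc2a1 (34136, 55426 and 45094, then 21302, 23246 and 21625) lost the call without KO stem library 2. Of 24 cholesterol genes 17 fell (median -0.61), among them Dhcr7 of the last step of synthesis (-1.06 ± 0.07). Hmgcs1 and Srebf2 rose, edgeR called 1 rise, and both limma calls were lost without KO differentiated library 2 or 3 or KO stem library 2 or 3, and 3 rose without KO differentiated library 1. Of 31 genes of fatty acid oxidation and lipid handling 17 rose and 8 fell (median 0.41). Of these 4 passed through a single condition, and of the 26 at 10 or more in all 6 libraries 13 rose and 7 fell (median 0.26). Cd36, a fatty acid transporter, went from 198 reads to 3 (58.4-fold lower, interval 19.7 to 285).

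Genes listed as targets of AhR, with Ahr itself among them, moved both ways in organoids without it. Of 12 listed 8 were members, 4 of which fell (Aldh3a1, Cyp1b1, Nqo1 and Tiparp) and 3 rose (Ahr, Nfe2l2 and Ugt1a6a), with a median of -0.61. Of all tested genes 33.6% fell and 34.1% rose, so these counts over 8 genes are not read as a result about the list. Cyp1b1, whose upstream sequence is shown above, fell from 571, 408 and 269 to 20.6, 16.0 and 13.0, 25.2-fold (log2 -4.53 ± 0.23, limma adjusted p = 2.51e-08). In WT organoids it fell from 8502, 7479 and 8453 to 574, 680 and 634 (log2 -3.69), so the level differed between the genotypes in both conditions while the fall was present in both, and the difference of the falls did not pass (log2 -0.84 ± 0.33, limma adjusted p = 0.13). Aldh3a1, an aldehyde dehydrogenase, fell from 847, 543 and 348 to 59.4, 41.7 and 42.3 (log2 -3.50 ± 0.33). Nqo1, a quinone reductase, was called (-0.60 ± 0.19, limma adjusted p = 0.0164) and lost the call without KO stem library 3.

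Enzymes of xenobiotic metabolism outside that list rose: 29 of 41 rose and 5 fell (median 1.96). Here 9 of the 41 passed through a single condition, and of the 28 at 10 or more in all 6 libraries 16 rose and 5 fell (median 0.61). The carboxylesterase gene Ces2a went from 2 reads to 539 (ratio 305, interval 84.0 to 2523). Ugt1a1, which glucuronidates bilirubin, rose from 10.2, 6.60 and 8.14 to 356, 1087 and 1453 (log2 6.49 ± 0.50). The Ugt1a genes share their last exons, so how reads were divided between Ugt1a1, Ugt1a6a and Ugt1a7c is uncertain. KO differentiated library 1 was the lowest for 25 of the 29 that rose.

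Genes linked to fetal-like and regenerating epithelium split: 14 of 24 rose and 7 fell (median 0.81). Clu, clusterin, which marks revival stem cells (chr14:65968483-65981547), rose from 36649, 25929 and 20150 to 641206, 461945 and 408551 (log2 4.21 ± 0.27). Sprr1a (4.31 ± 0.29), Spp1, osteopontin (4.07 ± 0.30), and Basp1 (3.53 ± 0.44) rose as well. Ly6a, also called Sca-1, fell from 151137, 150973 and 129281 to 86450, 90339 and 83582 (log2 -0.73 ± 0.08). Of 27 YAP targets 11 rose and 4 fell (median 0.24), led by Nt5e (3.46 ± 0.66) and F3, tissue factor (2.57 ± 0.42), and Birc3, an inhibitor of apoptosis, was very even between libraries (674, 669 and 621, then 2944, 2893 and 2816). Of 13 genes of the EGF family and its feedback 4 rose and 3 fell (median -0.06, mean 0.25), with Egfr up from 3669, 3592 and 3637 to 15755, 13567 and 11586 (log2 1.90 ± 0.11), Erbb2 by 1.24 ± 0.10 and Erbb3 by 1.22 ± 0.11.

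The structural genes of the sheet were induced in the main. Of 27 basement membrane and integrin genes 20 rose and 2 fell (median 0.96). Lama3, a chain of laminin-332, rose from 3145, 2343 and 2472 to 36567, 37766 and 34887 (log2 3.79 ± 0.12), Itga1 by 4.99 ± 0.26 and Itga2 by 2.55 ± 0.06, integrins for collagen. Of 22 tight junction genes 15 rose and 6 fell (median 0.64), and 1 of the 22 passed through a single condition. Cldn4 (1.99 ± 0.19) and Cldn23 (2.96 ± 0.15) rose, and Cldn10 (-4.28 ± 0.52) and Cldn1 (-2.73 ± 0.47) fell. Of 15 keratins 8 rose and 4 fell (median 0.53), with Krt84 (5.12 ± 0.49) and Krt16 (3.22 ± 0.42) behind Krt20, and Krt13 falling (-2.32 ± 0.17). Here 2 of the 15 passed through a single condition. Of the 12 at 10 or more in all 6 libraries 6 rose and 4 fell (median 0.51).

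Interferon-stimulated genes fell. Of 36, 25 fell and 7 rose (median -0.74), all 36 at 10 or more in every KO library. Bst2, tetherin, fell from 13261, 11371 and 10064 to 2192, 2008 and 1799 (log2 -2.53 ± 0.12). Oas2, which senses double-stranded RNA, fell from 6689, 6115 and 5358 to 1201, 1679 and 1448 (log2 -2.08 ± 0.12). Ifit1bl1 went the other way, from 596, 440 and 392 to 2196, 4311 and 4992 (log2 2.95 ± 0.26), as did Mx1 at a lower level (2.60 ± 0.32). Of 18 antigen presentation genes 9 fell and 4 rose (median -0.22). H2-DMa of the class II pathway fell (-1.51 ± 0.21) and Cd74, the invariant chain, rose (1.71 ± 0.23). The call for H2-Ab1 (-2.27 ± 0.89, limma adjusted p = 0.0396) was lost when any of 8 libraries was left out.

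Other genes of mucosal defence rose more often than they fell, 22 against 9 of 34 (median 1.84), and 7 of the 34 passed through a single condition. Of the 20 at 10 or more in all 6 libraries 14 rose and 4 fell (median 1.73). Il1a, an alarm cytokine of epithelium, rose from 2.15, 0.734 and 0 to 174, 220 and 187 (log2 6.78 ± 0.43), and the neutrophil attractant gene Cxcl1 by 4.27 ± 0.59. S100a9, a calprotectin subunit, fell from 68.9, 72.7 and 86.5 to 3.81, 1.07 and 6.82 (log2 -4.17 ± 0.49).

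Genes of amino acid supply and antioxidant defence fell more often than they rose, and immediate early genes rose more often. Of 29 genes of amino acid synthesis and the unfolded protein response 18 fell and 3 rose (median -0.86). Psat1 of serine synthesis fell from 17250, 20484 and 22371 to 1658, 1852 and 1958 (log2 -3.45 ± 0.10), the amino acid transporter gene Slc7a5 from 9004, 12210 and 12890 to 1263, 1329 and 1298 (log2 -3.11 ± 0.12), and Mthfd2 of mitochondrial folate metabolism fell as well (-3.50 ± 0.21). Trib3 read 1695, 6483 and 6210 and then 369, 366 and 376 (log2 -3.46 ± 0.70), with KO stem library 1 apart. Of 25 NRF2 antioxidant genes 17 fell and 4 rose (median -0.41). Gpx2, the epithelial glutathione peroxidase, fell from 238131, 221523 and 242999 to 59727, 49342 and 46945 (log2 -2.18 ± 0.09), while Gpx1 (1.69 ± 0.10) and Gpx3 (2.46 ± 0.27) rose. Of 23 immediate early and heat shock genes 11 rose and 5 fell (median 0.25), with Jun up from 1036, 1331 and 1106 to 8421, 6045 and 6033 (log2 2.55 ± 0.17), Btg2 by 1.68 ± 0.15 and Junb by 1.30 ± 0.09.

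Markers of cells outside the epithelium were low. Of 21 fibroblast and muscle markers 3 were members. Vim and Col1a1 did not pass the test (limma adjusted p = 0.773 and 0.934), with KO stem library 3 apart as described above. Of 23 immune, blood and endothelial markers 3 were members. Cd68, a lysosomal protein not restricted to macrophages, fell from 4419, 4551 and 4385 to 584, 910 and 1198 (log2 -2.37 ± 0.28), and Csf1r rose from 60.9, 44.0 and 57.0 to 501, 427 and 492 (log2 3.12 ± 0.17). The list sum of 4612 to 4733 in KO stem and 1262 to 1854 in KO differentiated is mostly Cd68, 12 to 16 of its 23 genes were at 0 in each library, and Ptprc, the pan-leukocyte marker, stayed at or below 3.05. Of 12 neuron and glia markers 2 were members, of which the receptor gene Ret rose (0.77 ± 0.17). The neuron and glia list summed to 203 to 286 in KO stem and 318 to 399 in KO differentiated.

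The KO response was then set against the WT response by testing the difference of the 2 changes (KO minus WT). Among the members 758 differed upwards and 521 downwards at a limma adjusted p under 0.05, where 5.12% and 3.58% of all tested genes did, 8.7% in all. Most differences were of degree. Of the 9818 genes called in KO, 9524 (97.0%) had the same sign in WT. Of the 1279 that differed, 887 were called in the same direction in both genotypes and 790 of these changed less in KO. A further 42 were called in opposite directions, 149 in KO with no call in WT, and 201 in WT with no call in KO. Differences of at least 1 on the log2 scale were called for 131 genes upwards and 124 downwards, where 0.895% and 0.909% of the tested genes did, 1.8% in all. The number called depended on single libraries, from 341 without WT differentiated library 3 to 1582 without WT stem library 1, so the counts below are given with their range over the 12 fits that each leave out 1 library.

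The fall of the cell division genes was less deep in KO organoids. The median change of the 37 replication genes was -2.15 in KO and -2.82 in WT, and 22 of them differed, all upwards (8 to 23 over the fits without 1 library). The lowest count, 8, came without KO stem library 2 or WT differentiated library 3, and leaving out KO stem library 1, WT differentiated library 1, KO differentiated library 2 or KO stem library 3 gave 12 to 14. The mitosis genes had medians of -3.30 and -4.14, and 15 of 32 differed upwards (6 to 29, with 6 to 8 without KO stem library 1 or 2 or WT differentiated library 1 or 3, and 29 without KO differentiated library 1). Of the 1685 genes that fell at least 2-fold in KO, 1110 (65.9%) changed less than in WT. Among the 2006 that rose at least 2-fold in KO, 939 (46.8%) changed less than in WT. All 32 mitosis genes and 35 of the 37 replication genes fell by less in KO. Bub1 illustrates it: 156 to 209 remained in KO differentiated against 104 to 130 in WT differentiated (difference 0.90 ± 0.17, limma adjusted p = 0.0161). For Mki67 the difference did not pass (0.67 ± 0.33, limma adjusted p = 0.219). In the stem condition the replication list summed to 158548 to 172265 in KO and 179839 to 244792 in WT. After differentiation it summed to 37156 to 38613 in KO and 31418 to 33758 in WT. The mitosis list summed to 135581 to 151079 in KO stem and 161604 to 187004 in WT stem. After differentiation it summed to 12524 to 17662 in KO and 11620 to 12226 in WT. In both lists KO was the lower before differentiation and the higher after it, without overlap.

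Ribosome biogenesis genes behaved alike, with medians of -0.72 in KO and -1.30 in WT. The change was higher in KO than in WT for all 30. The share of 65.9% above is for genes fallen at least 2-fold only. Here 13 differed upwards, but 2 to 8 did when any WT differentiated, KO stem or KO differentiated library was left out, and 20 to 22 without WT stem library 1 or 3. Npm1 differed by 0.55 ± 0.10 (limma adjusted p = 0.0143). Among the stem cell markers 6 differed upwards and Prom1 downwards (2 to 9 over the fits, with 2 without KO stem library 1 or 2 or WT differentiated library 1 or 3). Ascl2 was among them: it fell to 120 to 170 in KO and from 859, 1186 and 881 to 80.1, 58.5 and 75.0 in WT (difference 1.78 ± 0.26, limma adjusted p = 0.00975). Cd44 rose in KO, while in WT it read 19559, 16142 and 16551 and then 20887, 20919 and 18816 (difference 0.94 ± 0.16, limma adjusted p = 0.0122).

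The interferon-stimulated genes responded lower in KO than in WT. Their median was -0.74 in KO and 0.15 in WT, where 13 rose and 8 fell, against 36.3% and 35.9% of all tested genes (72.2% called in all). The change was lower in KO for 35 of the 36. Of the 36, 21 differed, all downwards (15 to 23 over the fits without 1 library, 21 with edgeR). Of the 21, 10 fell in KO with no call in WT, 4 rose in both, 3 fell in KO and rose in WT, 2 fell in both, and 2 rose in WT with no call in KO. Oas2 fell in both, further in KO (difference -1.07 ± 0.17, limma adjusted p = 0.0107). Ifit1bl1 rose in both, less in KO, and in WT it went from 197, 253 and 252 to 9246, 8225 and 9333 (difference -2.31 ± 0.37, limma adjusted p = 0.0107). In KO stem the list summed to 137218 to 164445 and in WT stem to 118862 to 136634, and after differentiation to 88812 to 112857 in KO and 152499 to 157878 in WT. The antigen presentation genes that differed, H2-D1, H2-K1, H2-T23, Tap1 and Tap2, all responded lower in KO, and the list had 1 to 3 such calls in place of 5 without KO stem library 1 or 2 or any WT differentiated library.

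**Figure D4:**
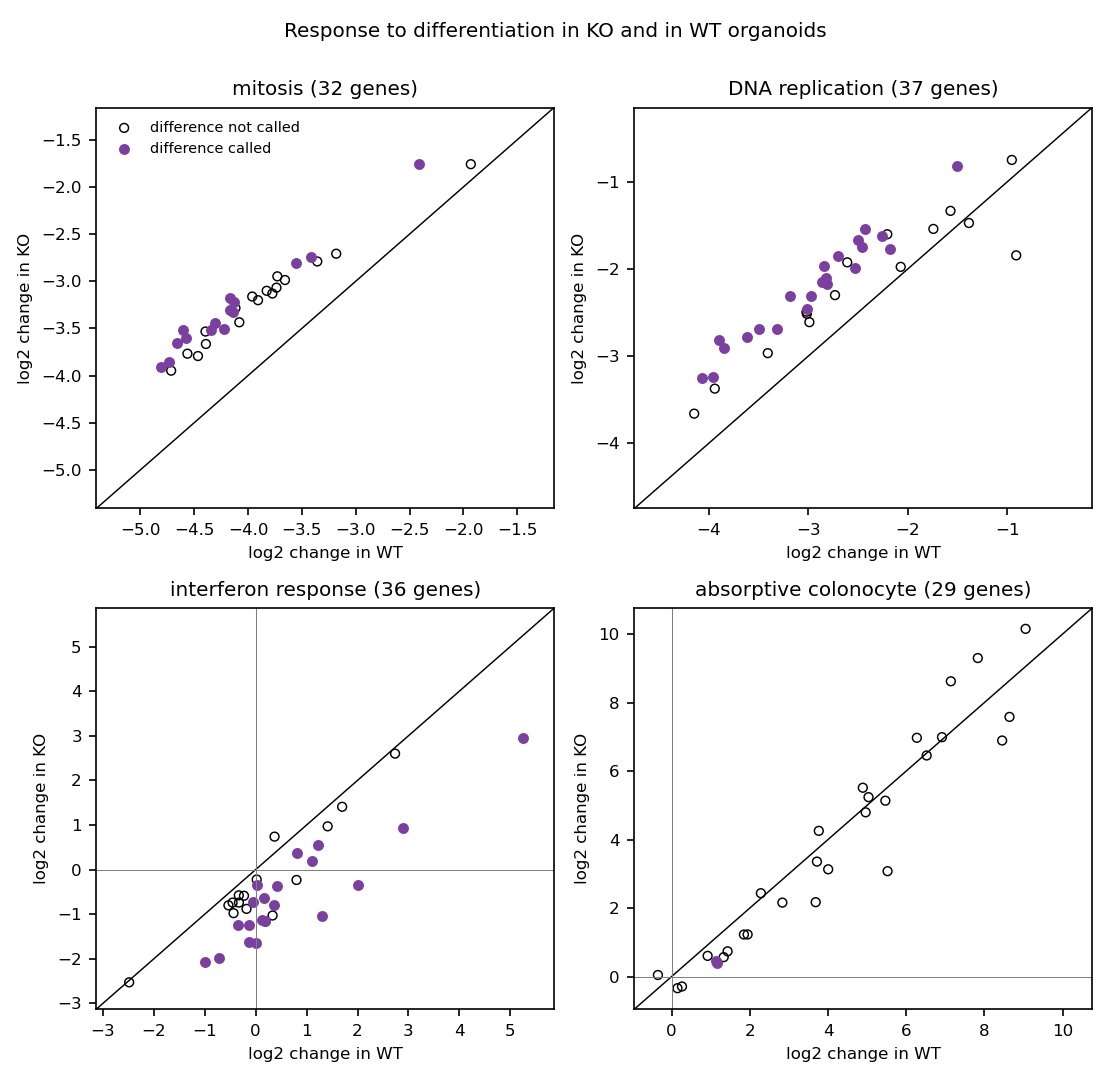
Log2 change of each gene in KO (y axis) against that in WT (x axis) for mitosis, DNA replication, interferon response and absorptive colonocyte genes, 1 panel each, with filled points where the difference passed the test and a line of equality. Mitosis points lie above the line (32 of 32), interferon points below it (35 of 36), and colonocyte points on both sides (10 above and 19 below).

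Few single genes of the colonocyte and goblet lists passed the test of the difference. Of the colonocyte genes Plac8 and Slc26a2 differed, both downwards, and the medians were 3.13 in KO and 3.76 in WT. Without KO differentiated library 1 the list had 2 upward and 1 downward calls, and it had 1 downward call without KO stem library 1 or 3, any WT differentiated library or WT stem library 2. The sum of the colonocyte list, to which genes with high counts add most, was 308506 to 323464 in KO stem and 333568 to 469792 in WT stem. After differentiation it was 326729 to 548619 in KO and 986118 to 1111420 in WT. The goblet list summed to 19882 to 22352 in KO stem and 17543 to 24388 in WT stem, and after differentiation to 30907 to 63081 in KO and 74635 to 88284 in WT. After differentiation the KO and WT libraries did not overlap in either sum. In the stem condition the colonocyte sums did not overlap either, while the goblet sums did. The goblet medians over genes were 3.21 in KO and 2.97 in WT, with a median difference of 0.02. Of the brush border genes 5 of 26 differed, all downwards, and 1 to 3 did without WT stem library 2, KO differentiated library 1 or 2, or any KO stem or WT differentiated library. Of the lipid genes 7 differed downwards and 1 upwards, and the downward count was 2 to 4 without KO stem library 1 or 2 or any WT differentiated library. Fabp2 differed as well, with 45 to 106 in KO differentiated against 795, 451 and 729 in WT differentiated (difference -3.62 ± 0.54, limma adjusted p = 0.0098). Of the goblet genes 3 differed, all upwards (Bcas1, Creb3l1 and Foxa3), with 2 to 4 upward calls over the fits without 1 library and 1 downward call without KO stem library 3. A p above the threshold does not show that the responses are alike.

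Some genes changed in KO alone or in the main. Nes, the intermediate filament protein nestin, rose from 444, 550 and 427 to 3080, 1714 and 1487 in KO, and in WT it read 303, 277 and 294 and then 324, 293 and 291 (difference 2.02 ± 0.31, limma adjusted p = 0.0098). Zbtb10, a zinc finger repressor, rose from 43.1, 33.0 and 42.8 to 386, 231 and 198 in KO, while WT read 112, 164 and 125 and then 192, 190 and 177 (difference 2.21 ± 0.33, limma adjusted p = 0.0098). Mcam, an adhesion molecule, rose from 189, 145 and 139 to 1031, 459 and 494 in KO (difference 2.26 ± 0.39). In all 3 genes KO differentiated library 1 was the highest. Cdx1 rose in KO and stayed below the WT level, which was 3604 to 4841 before and 4705 to 5796 after (difference 1.49 ± 0.32, limma adjusted p = 0.0204, lost without KO stem library 1 or 2 or WT differentiated library 3).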

How the data were processed

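RNA-seq libraries of 12 mouse colon organoid samples were grouped by the genotype and condition in their titles. Per the labels' processing notes the authors used Bowtie2, RSEM 1.2.11 with GRCm38 and DESeq2 1.18.1. The annotation and strand setting of their counting are not given in the sources used here. The deposited values were a signal per gene, read counts divided by a size factor for each library. Whole reads were recovered from the step of 1 read (0.539 to 2.27 units), and 100% of the values were whole within 0.05 of a read. Counts recovered in this way served for depth, intervals, floors and 2 alternative tests.

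Values were tested as log2(value + 1) with limma 3.58.1 (R 4.3.3, trend, 4 group means, 12 libraries) over the 14856 genes at 10 or more in at least 3 of the 12 libraries, with Benjamini-Hochberg adjustment and a threshold of 0.05. The contrasts were KO differentiated minus KO stem, the same in WT, and the difference of the 2. Genes to be named were the 12 largest rises and falls with a mean of at least 50 in either condition and no overlap, up to 4 genes with the largest change in each of 38 gene lists, a panel of 28 genes, and the 6 largest differences each way. Other genes are named as the members of a list that went against it or that differed. The members and lists were chosen with earlier results of these data known. Gene names and positions came from GENCODE on GRCm38, with 48435 of 48795 identifiers matched, and promoter sequences from RefSeq (GRCm38.p6).

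Same-numbered libraries deviated together from their group means, in KO (r over genes 0.33, 0.215 and 0.299) and more weakly in WT (0.107, 0.0552 and 0.145). Differently numbered pairs gave -0.242 to 0.013 in KO and -0.103 to 0.0111 in WT. The main fit leaves this pairing out, and a fit with the replicate number as a block is given as an alternative. The other alternatives were the pseudocount, filters, scalings, a robust spread, the KO libraries alone, edgeR 4.0.16 and DESeq2 1.42.0 on recovered reads, and each library left out in turn. One more, without WT stem library 1 and KO stem library 3, was added after seeing the data. Scripts were tested on simulated data. Values of a few single genes are not reported here. Intervals are 95% and, like the floor of 3 reads per library, cover counting error only.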

Additional observations from a re-analysis of the deposited data

Results flagged for a closer look

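The difference between the KO and WT responses passed the test of the difference itself for 35 of the named genes, given here as KO minus WT on the log2 scale. Of these, 16 held whichever of the 12 libraries was left out. Among them were Ascl2 (1.78), Cd44 (0.94), Zbtb7c (1.22), Bub1 (0.90), Npm1 (0.55), Itga2 (0.50), Slc7a5 (0.88), Gpx2 (0.70), Mcam (2.26), Zbtb10 (2.21) and Nes (2.02) upwards, and Fabp2 (-3.62), Ifit1bl1 (-2.31), Oas2 (-1.07) and Usp17ld (-3.15) downwards. Usp17ld belongs to a family of near-identical copies.

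The other 19 lost the call in at least 1 of the 12 fits. Il16 (-2.71), Prim1 (0.82), Hmmr (0.87) and Cdx1 (1.49) lost it without KO stem library 1 or 2 or WT differentiated library 3. Cdca7 (0.65), Gnl3 (0.81), Psat1 (0.67) and Btnl1 (-3.00) lost it without these or WT differentiated library 1. Cd36 (-3.80) lost it without KO stem library 1 or 2 or WT differentiated library 1 or 2, and Erbb2 (-0.60) without any KO stem library or WT differentiated library 1 or 3. Ret (-1.02) lost it without KO differentiated library 3, KO stem library 2 or 3 or WT differentiated library 1 or 3. Chst11 (2.07) lost it without KO differentiated library 2, KO stem library 1 or 3 or WT differentiated library 2 or 3, and Ptpn5 (-4.21) without KO differentiated library 1, any KO stem library or WT differentiated library 1 or 3. Cdc45 (0.72), Fbl (0.64), Axin2 (0.69), Slc3a1 (-3.01), Rgs5 (2.23) and Ugt1a7c (2.01) lost it in 8 or more of the 12 fits. KO stem library 1, KO stem library 2 and WT differentiated library 3 each ended 18 of the 35 calls. With edgeR on recovered reads, Cd36, Axin2, Slc3a1, Btnl1 and Rgs5 were not called.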

How the results depend on the processing

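The number of genes changed in KO organoids, 9818, ranged from 9056 to 10472 when each library was left out in turn and was 9849 with edgeR, 10054 with DESeq2, 9962 with the replicate block (9598 shared) and 10014 with the KO libraries alone. A 2-fold minimum kept 3691, of which 2006 rose and 1685 fell. The number of genes whose response differed between KO and WT, 1279, was less stable. It was 1216 with edgeR and 1335 with the replicate block (987 shared), 2437 with DESeq2 (1498 upwards and 939 downwards), and 704 with no filter on low values (430 and 274), and the cause was not tested. With 1 library left out it ranged from 341 to 1582 (207 to 920 upwards, 134 to 662 downwards). It was 341 without WT differentiated library 3, 417 without KO stem library 1, 456 without KO stem library 2, 519 without WT differentiated library 1, 732 without KO differentiated library 2, 787 without KO stem library 3 and 837 without WT differentiated library 2. Without WT stem library 1 and KO stem library 3 it was 1226 (885 shared). The block ended 4 of the 35 named differences, with limma adjusted p of 0.056 (Erbb2), 0.054 (Ret), 0.07 (Axin2) and 0.057 (Slc3a1), and no call of a named gene in the KO response. Of 5095 values of named genes in the KO response under alternatives, 5057 kept their side of the threshold, 28 lost the call and 10 gained it. Of 871 for the differences, 730 kept it and 141 lost it. No direction of a called value turned.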
